A study of Drosophila melanogaster with 4 samples.

Results

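Clusters of H4K8ac enrichment were described in the 2 Mb of sequence nearest the centromere on 4 chromosome arms of Drosophila melanogaster, 3R, 2L, 3L and X. A cluster belonged to the set when it lay fully inside 3R 1 to 2000000, 2L 21011545 to 23011544, 3L 22543558 to 24543557 or X 20422828 to 22422827, in FlyBase release 5 coordinates counted from 1. The series-wide list of enriched clusters held 378 such clusters of 9912 in all, with 177 on 3R, 98 on 2L, 46 on 3L and 57 on X. The same rule gave 161 of 5692 clusters in ChIP replicate 1 and 150 of 5482 in ChIP replicate 2. The samples came from whole larvae at instar 3 of the wild-type strain Oregon-R. There were 2 H4K8ac chromatin immunoprecipitation (ChIP-seq) libraries and 2 input DNA libraries made without antibody. The antibody was a rabbit polyclonal, and no list of the inputs was analysed here. Whole larvae mix many tissues, so a mark held by few cells and a weak mark held by all of them cannot be told apart. The labels do not state if each replicate was a collection of its own, so its spread may be technical.

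Acetylation of histone H4 at lysine 8 is one of the marks on the H4 tail found at active promoters and transcribed genes, and acetylated H4 tails are bound by proteins with bromodomains. The chromatin that flanks centromeres, pericentric heterochromatin, is rich in repeats, holds few genes per unit of length, and is known for methylation of histone H3 at lysine 9 and for the protein HP1. In the standard orientation, the sequences of 2L, 3L and X run towards the centromere, whereas that of 3R starts beside it. All distances count from the proximal sequence end. The extent of heterochromatin in each stretch was not measured, and equal distances on 2 arms need not be equal in chromatin type.

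With 1 antibody and 2 ChIP replicates, no test was run. Clusters of one genome are not replicates, so differences between arms are set against the spread of the replicates and carry no p-value. Depth is unknown, since the lists hold positions and scores but no reads. Near the centromere the replicates shared most of their clusters. Of the 161 proximal clusters of replicate 1, 102 (63.4%) shared at least 1 base with replicate 2, and 97 of 150 (64.7%) in replicate 2 shared a base with replicate 1. Over the complete lists these shares were 68.6% and 73.4%. By arm they were 68.9% and 66.7% on 3R, 62.8% and 63.2% on 2L, 56.0% and 73.3% on 3L and 52.6% and 54.5% on X. Over the 80 bins of 100 kb, the covered shares of the replicates had a Spearman correlation across bins of 0.91. By arm it was 0.93 on 3R, 0.83 on 2L, 1 on 3L and 0.77 on X. Of the 80 bins, 38 were empty in both replicates, 17 of them on 3L. Such bins enter the correlations as ties, and the value of 1 on 3L rests on its few occupied bins. Bins of one arm are neighbours and not independent, and the 2 libraries share the arms' structure.

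The map of clusters by distance showed a different arrangement on each arm. On 3R clusters reached the first kb of the sequence, on 3L they stopped at one sharp point, on 2L few lay nearer than 1000 kb, and on X they came in separate groups. The nearest series-wide cluster that both replicates met lay 0.395 kb from the end on 3R, 989 kb on 2L, 1600.2 kb on 3L and 167 kb on X. Within 1000 kb of the end, replicates 1 and 2 had 37 and 38 clusters on 3R, 2 and 3 on 2L, 6 and 10 on X and none on 3L. The series-wide list had 96 on 3R, 14 on 2L and 25 on X there, and none on 3L.

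**Figure D1:**
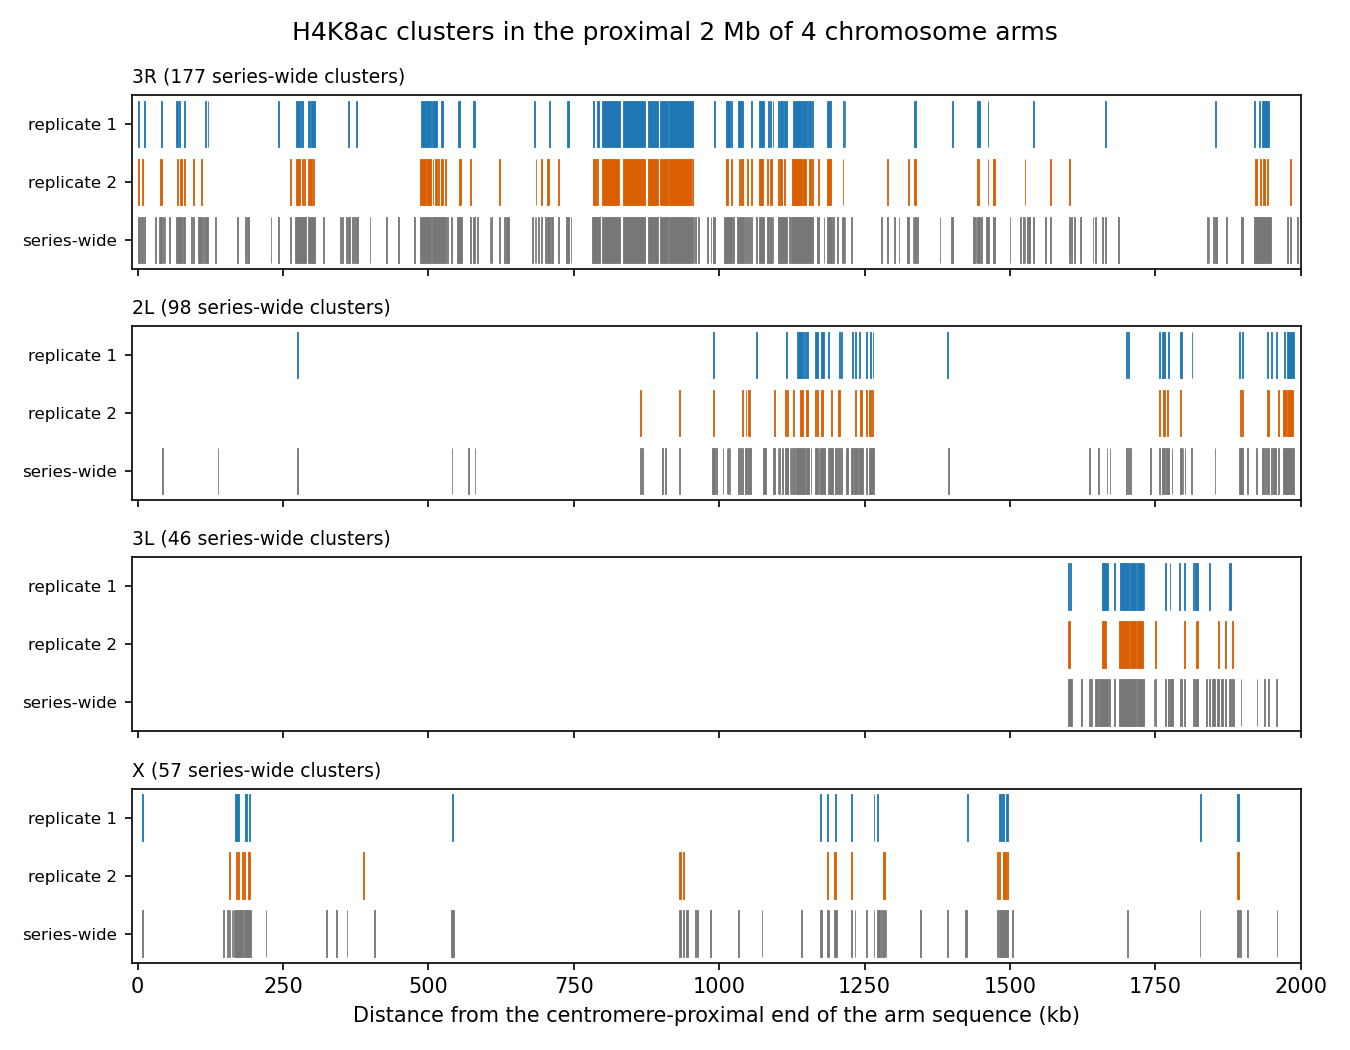
Clusters of the 3 lists in the proximal 2 Mb of each arm, drawn to scale against the distance from the centromere-proximal end (kb, x axis), with 1 track for each ChIP replicate and 1 for the series-wide list. Clusters start at 0.395 kb on 3R in the series-wide list, and on 3L no cluster lies within 1600 kb of the end in any list.

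On 3R the mark was present from the first bases of the arm sequence. The series-wide cluster at 3R 396 to 3412 (3.02 kb, score 0.52) was met by a cluster at 772 to 2433 in replicate 1 and at 499 to 2597 in replicate 2. The score is the authors' own, its scale is unknown here, and it serves only to rank clusters within a list. By score the replicate 1 counterpart was in the lowest 4.87% of its list, while the replicate 2 counterpart was above 80.7% of its list. The next clusters in both replicates were at 39042 to 42052 and 66720 to 69266. The 3 were 2.55 to 3.02 kb long, above 67.5% to 73.1% of the series-wide clusters by length. When clusters below their list's median score were dropped, the first cluster in both replicates lay 271 kb from the 3R end, at 270624 to 282144. Of the 20 bins of 100 kb on 3R, 1 had no cluster in either replicate, between 1700 and 1800 kb.

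The densest proximal chromatin of 3R lay from 800 to 1200 kb. There clusters covered 54.7% of the bases in replicate 1 and 51.2% in replicate 2. The bin at 800 to 900 kb was covered over 84.7% and 84.6%, and the 3 bins that followed over 54.7%, 31.8% and 47.5% in replicate 1 and 52.7%, 24.3% and 43.1% in replicate 2. These 400 kb held 65.0% and 63.8% of all cluster bases of the 3R stretch. On both sides the covered share was lower. It was 9.00% and 12.1% at 700 to 800 kb, and 3.44% and 2.85% at 1200 to 1300 kb. Distal to the block, each bin from 1200 to 1900 kb had 0% to 8.98% in both replicates. Low bins also lay on its centromere side, with 3.71% and 1.84% at 100 to 200 kb, 6.70% and 1.78% at 300 to 400 kb, and 1.71% and 4.51% at 600 to 700 kb. Other bins on that side were fuller, with 11.9% and 15.1% at 0 to 100 kb and 17.0% and 18.5% at 200 to 300 kb. The bin at 400 to 500 kb had 11.9% and 13.0%, and that at 500 to 600 kb 20.8% and 18.5%. Each of these fuller bins was above every bin from 1200 to 1900 kb. Farther out, the bin at 1900 to 2000 kb had 15.1% and 12.9%.

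The part of the block up to 952586 was built of long clusters with close borders in the replicates. On 3R 12 series-wide clusters reached 10 kb, and 5 of them stood side by side from 798986 to 952586. They were 29.8, 37.9, 16.7, 14.4 and 38.9 kb long in sequence order, and each had 1 counterpart in each replicate that covered 98.5% to 99.9% of it. The longest, at 3R 913694 to 952586, had its replicate 1 counterpart at 913677 to 952559 and its replicate 2 counterpart at 913851 to 952295. The cluster at 878042 to 894778 had the highest score of the proximal set, 1.25, and the scores of the other 4 were 1.02 to 1.11. All 5 were above at least 99.8% of the series-wide clusters by score. The other 7 long clusters of 3R had scores of 0.47 to 0.66 and were split in at least 1 replicate. Among these, 1125140 to 1149498 (24.4 kb) was 3 clusters in replicate 1 and 4 in replicate 2. Its neighbour 1149684 to 1161114 was covered over 70.9% and 42.8%, and 1010702 to 1021978 over 68.3% and 41.4%, so the replicates differed more in that part of the block. Farther towards the centromere, 486032 to 505210 (19.2 kb) was covered over 82.9% and 91.7%.

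On 3L the edge was abrupt and lay at nearly the same place in both replicates and in the series-wide list. The last series-wide cluster ended at 3L 22943382, and the last clusters of replicates 1 and 2 ended at 22943212 and 22943155. Beyond them 1600.2 kb held no series-wide cluster, and 16 of 20 bins of 100 kb were empty in every list. The first occupied bin, at 1600 to 1700 kb, was covered over 24.3% in replicate 1 and 21.0% in replicate 2, and the next over 31.1% and 25.8%. These bins at the edge were fuller than the rest of 3L, which was covered over 19.3% and 18.1%. The core of this group was formed by 2 long clusters in series. They lay at 22826530 to 22838244 (11.7 kb, score 0.82) and 22838924 to 22856480 (17.6 kb, score 0.75). The first was a single cluster in each replicate that covered 96.3% and 95.4% of it, and the second was split into 4 and 2 clusters. From 1900 kb to the inner limit no replicate had a cluster, and the series-wide list covered 7.38%.

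On 2L the clusters thinned out unevenly towards the centromere. The bin at 1100 to 1200 kb was covered over 24.8% in replicate 1 and 24.9% in replicate 2. Closer in, the shares were 1.45% and 7.70% at 1000 to 1100 kb, 1.98% and 3.70% at 900 to 1000 kb, and 0% and 1.49% at 800 to 900 kb. The last cluster in both replicates was 2L 22019276 to 22022540 (3.27 kb, score 0.54), covered over 60.6% and 71.8%. Its counterpart in replicate 2 had the highest score of that list on the 2L stretch, 0.88. Nearer the centromere each replicate had few clusters, none of them shared. The nearest was at 22734993 to 22736730 in replicate 1 and at 22145575 to 22147063 in replicate 2, in the lowest 6.73% and 1.71% of their lists by score. The series-wide list went on to 22967182 to 22968840, 42.7 kb from the end, with a score of 0.36 and no base in either replicate. Between the nearest clusters of the 2 replicates, 588 kb from 22147064 to 22734992 had no cluster in either. A second such stretch, of 306 kb, lay farther out, from 21312329 to 21618449. Distal to it the clusters returned, with 24.2% and 26.7% covered at 1900 to 2000 kb.

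On X the clusters were small and grouped, and one group lay close to the end of the sequence. At 100 to 200 kb from the end, 12.7% of replicate 1 and 13.4% of replicate 2 was in clusters, the highest value of any X bin. This group held the longest X cluster, 22228598 to 22237978 (9.38 kb, score 0.57), which was 2 clusters in each replicate. Its neighbours 22246272 to 22251594 and 22251650 to 22256226 were also in both replicates. Around this group the X was almost empty. From 200 to 900 kb the replicates reached at most 1.60% in any bin, and a stretch of 389 kb from 21491229 to 21879959 had no cluster in either. The cluster closest to the end, at 22413968 to 22415894, was in replicate 1 alone. Other clusters in both replicates lay at 1100 to 1300 kb, at 1400 to 1500 kb and, as 1 cluster of 4.67 kb at 20528560 to 20533224, in the bin at 1800 to 1900 kb. Of the 20 X bins 11 were empty in both replicates, against 9 on 2L and 17 on 3L.

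**Figure D2:**
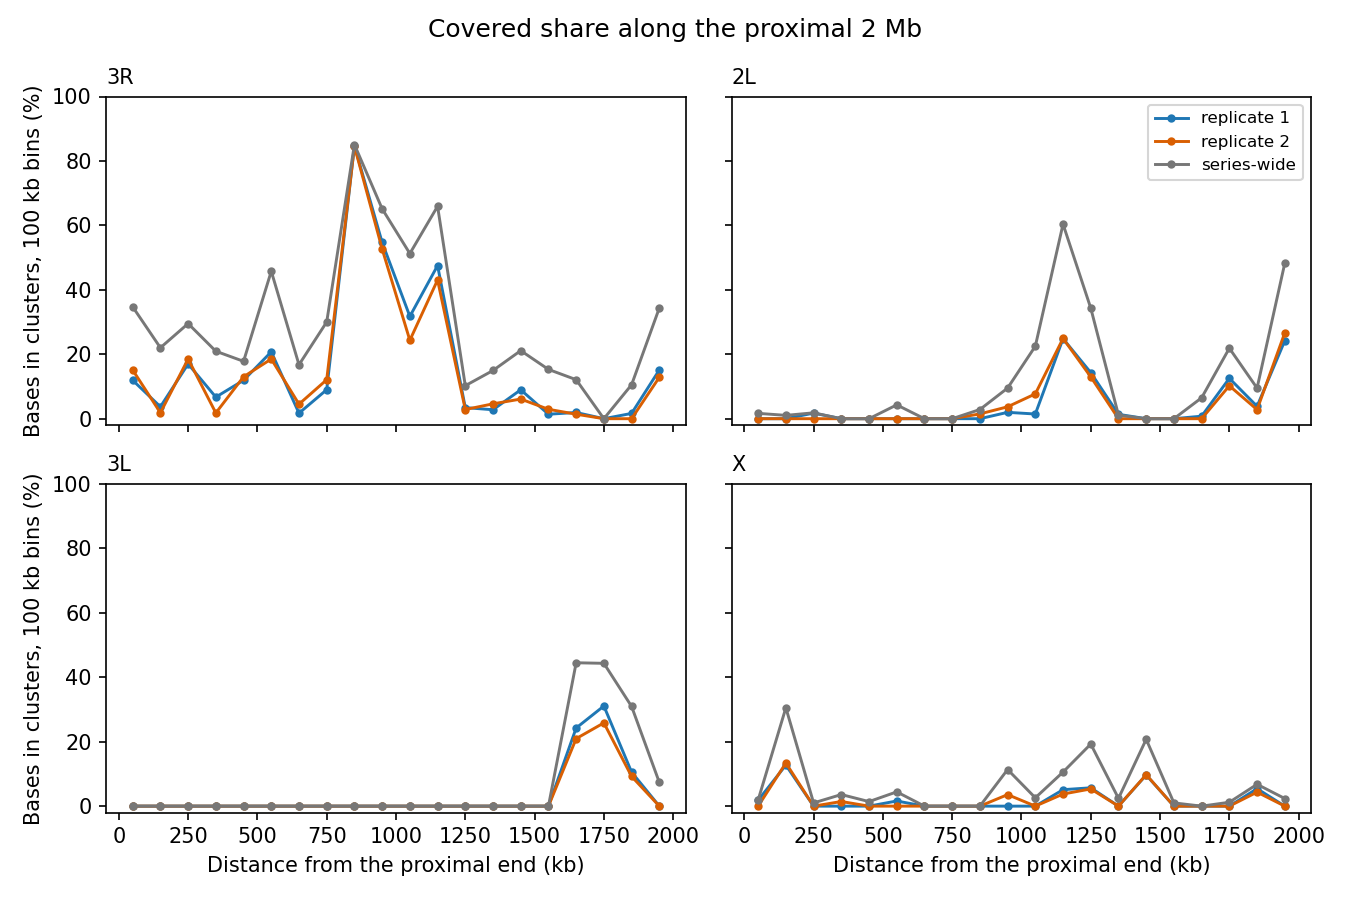
Percent of bases in clusters in each bin of 100 kb (y axis) against the distance from the proximal end (kb, x axis), for the 2 ChIP replicates and the series-wide list. The 3R bin at 800 to 900 kb reaches 84.7% and 84.6% in the replicates, 3L is at 0 up to 1600 kb, and no X bin exceeds 13.4% in a replicate.

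Empty sequence filled most of the stretches on 2L, 3L and X and less of 3R. Runs of at least 50 kb with no cluster in either replicate made up 42.3% of the 3R stretch, against 77.5% on 2L, 88.5% on 3L and 87.8% on X. In the series-wide list such runs made up 10.2% on 3R, against 60.1% on 2L, 80.0% on 3L and 68.4% on X. The longest run on 3R was 186 kb, from 1665175 to 1851603, nearer to the inner limit than to the centromere. On X a second run of 330 kb lay at 20596633 to 20926943, between the clusters at 1400 to 1500 kb and those at 1800 to 1900 kb. Between neighbouring series-wide clusters the median gap was 3051 bp on 3R, 2633 bp on 2L, 2571 bp on 3L and 7823 bp on X. In the rest of each arm it was 1973, 1967, 1721 and 2103 bp on the same arms. The replicate lists gave other orders. Their median gaps in replicates 1 and 2 were 6587 and 6465 bp on 3R, 4566 and 6737 bp on 2L, 1810 and 10586 bp on 3L and 18345 and 4896 bp on X, so no order of the arms by spacing held in all lists. The cluster that brings the running total of cluster bases from the proximal end to 50% lay at 901 and 887 kb on 3R in replicates 1 and 2, at 1254 and 1235 kb on 2L, at 1710 and 1708 kb on 3L and at 1200 and 1199 kb on X.

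Clusters covered more of the 3R stretch than of the other 3 in both replicates, by more than the replicates differed. The covered share was 16.4% ± 0.56 on 3R, against 4.44% ± 0.12 on 2L, 3.05% ± 0.35 on 3L and 2.09% ± 0.016 on X (SD, n = 2 for each). These shares count all bases in clusters, also those of clusters that cross the inner limit. The SD covers the 2 libraries only and does not measure how coverage varies from place to place along an arm. The 3R share was 5.18 times the mean of the other 3 in replicate 1 and 5.12 times in replicate 2, and 3.82 times in the series-wide list. Outside the proximal stretch the same ratio was 0.957 and 0.951. There 3R was covered over 14.3% and 13.2%, against 14.6% and 13.4% on 2L, 19.3% and 18.1% on 3L and 11.0% and 10.0% on X. The contrast was strongest in the first Mb, where 3R was covered over 22.2% and 22.3%, against 0.372% and 0.518% on 2L, 1.62% and 1.84% on X and 0% on 3L. In the second Mb 3R was at 11.5% and 9.81%, against 8.33% and 8.53% on 2L, 6.59% and 5.60% on 3L and 2.59% and 2.32% on X.

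On 3R the proximal stretch was covered more than the rest of the arm, and on 2L, 3L and X less. The difference, proximal minus rest, was 2.52 percentage points in replicate 1 and 2.87 in replicate 2 on 3R. It was -10.3 and -8.84 on 2L, -16.0 and -15.3 on 3L and -8.90 and -7.96 on X. Other 2 Mb windows of 3R were covered over 6.99% to 21.7% in replicate 1 and 6.34% to 18.7% in replicate 2. The 3R stretch lay within that range, whereas on 2L, 3L and X the stretch lay below every other such window of its arm. The 3R excess rested on the block at 800 to 1200 kb. The other 1600 kb of the 3R stretch were covered over 7.38% and 7.26%, which is below the 14.3% and 13.2% of the rest of 3R. With the densest 400 kb left out of every stretch, 3R still lay above the other arms, which had 2.78% and 2.57% on 2L, 0% on 3L and 1.35% and 1.42% on X. Leaving out the densest part lowers any stretch, and the rest of the arm was not treated in this way. The block was singled out after its values were seen. In the replicates the 3R stretch had fewer clusters per Mb than the rest of its arm and a higher mean length. It had 37.0 and 37.5 clusters per Mb, against 46.6 and 45.8 in the rest of 3R, and a mean length of 4550 and 4277 bp, against 3071 and 2873 bp. The median length differed less, at 2102 and 2015 bp, against 1999 and 1962 bp. Among series-wide clusters the number per Mb went the other way, 88.5 against 83.4, and so did the median, 1641 bp against 1827 bp. The series-wide mean length kept its direction but differed little, at 3403 bp against 3331 bp. On 2L, 3L and X the number per Mb was 7.50 to 21.5 in the proximal stretch, against 39.0 to 58.3 in the rest of these arms.

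**Figure D3:**
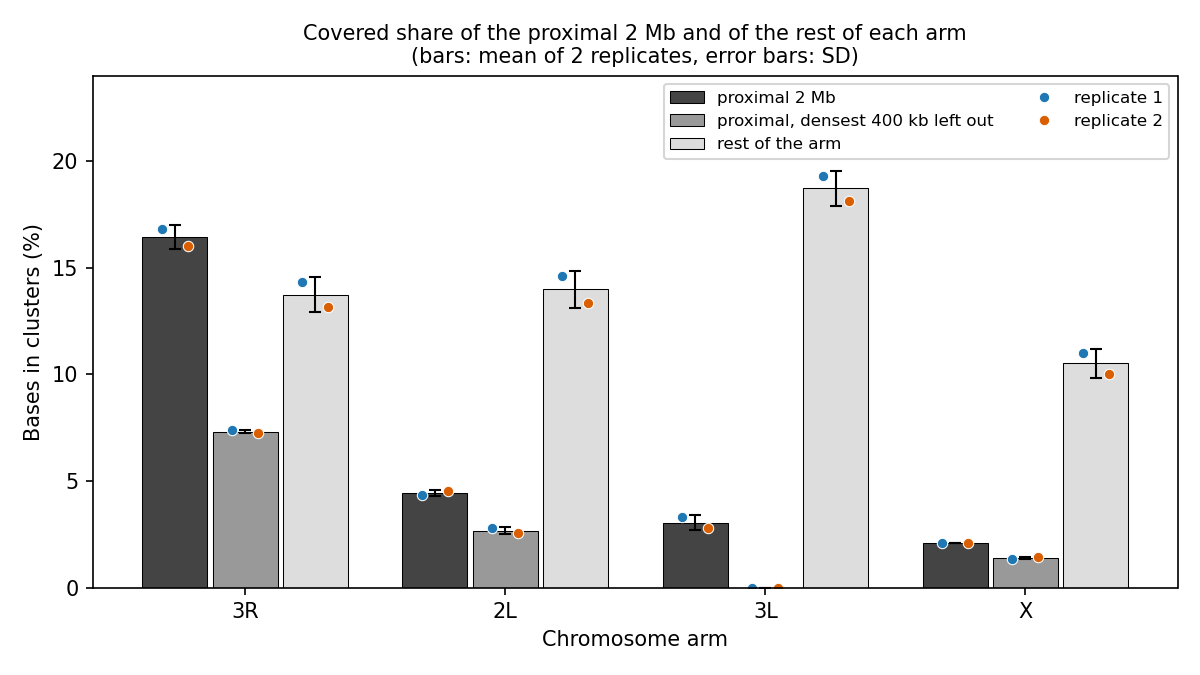
Percent of bases in clusters (y axis) for each arm in the proximal 2 Mb, in the same stretch without its densest 400 kb, and in the rest of the arm. Bars are means of 2 ChIP replicates, error bars their SD and points the replicates. On 3R the proximal bar, 16.4%, is above the rest of the arm, but it falls to 7.32% without the densest 400 kb.

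Most proximal clusters were short on every arm, and the arms differed in their longest clusters more than in the typical one. In the series-wide list the median length was 1641 bp on 3R, 1715 bp on 2L, 1703 bp on 3L and 1541 bp on X. The middle 50% of clusters ran from 1241 to 2945 bp on 3R, 1209 to 2521 bp on 2L, 1374 to 2467 bp on 3L and 1111 to 2247 bp on X. Clusters of 10 kb or more made up 12 of 177 (6.78%) on 3R, against 1 of 98 on 2L, 2 of 46 on 3L and none of 57 on X. The other 3 stretches together had 3 of 201 (1.49%), against 5.69% in the complete list. Among the 15 long clusters of the set, all were met by both replicates, as were 419 of 420 in the rest of the 4 arms. Length itself makes a cluster easier to meet, because 1 shared base was enough. The replicates had 6 each of 10 kb or more on 3R (8.11% and 8.00%), 1 each on 3L and none on 2L or X. Of their complete lists 3.53% and 3.06% were that long, so the 3R share stood farther above the background in the replicates than in the series-wide list. Most of the 6 in each replicate lay in the single run from 798986 to 952586. In the rest of 3R the share was 2.98% and 2.53% in the replicates and 5.42% in the series-wide list. At the short end, 48 clusters on 3R (27.1%), 35 on 2L (35.7%), 10 on 3L (21.7%) and 23 on X (40.4%) were below 1301 bp, the shortest length in the replicate lists. The background was 26.6%.

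By number of clusters, both replicates met 17.5% to 22.0% of the series-wide clusters on the 4 arms. Clusters of both replicates met 39 of 177 series-wide clusters on 3R (22.0%), 21 of 98 on 2L (21.4%), 9 of 46 on 3L (19.6%) and 10 of 57 on X (17.5%). Over the complete list 25.2% were met by both. With so few clusters the exact 95% binomial intervals are wide, 16.2% to 28.9% on 3R and 8.75% to 29.9% on X. They cover counting error only and treat clusters as independent, which neighbours are not. Clusters met by neither replicate were 95 on 3R (53.7%), 50 on 2L (51.0%), 23 on 3L (50.0%) and 31 on X (54.4%), near the background of 50.4%. The clusters in both were longer, with a median of 6203 bp on 3R, 3265 bp on 2L, 4125 bp on 3L and 4621 bp on X, against 1197 to 1417 bp for those in neither. The same held in the rest of the arms. There the medians were 5401, 5722, 6048 and 4869 bp on the same arms, against 1275 to 1325 bp for those in neither. Since 1 shared base was enough, a longer cluster is met more easily, so this direction is partly set by the rule. By bases the arms differed more, and the replicates had 75.6% and 79.3% of their own 3R coverage in common, 60.0% and 57.7% on 2L, 69.1% and 81.3% on 3L and 47.7% and 48.3% on X. On 3L the lists differed most in number, with 25 clusters in replicate 1 and 15 in replicate 2.

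The arms ordered differently by score in the series-wide list and in the replicate lists. In the series-wide list the median score was 0.39 on 3R, 0.41 on 2L, 0.41 on 3L and 0.49 on X. The share of clusters in the highest 10.0% of scores of that list was 7.34% on 3R, 2.04% on 2L, 6.52% on 3L and 26.3% on X. The rest of the X, at 17.0%, was also above that background. Of the 13 such clusters on 3R, 11 were met by both replicates and 2 by neither. Of the 15 on X, 3 were met by both and 12 by neither. On both arms those met by neither were under 2 kb long. The 3R cluster at 713016 to 714032 (1.02 kb, score 0.95) was one of them. Among the 10 clusters with the highest scores in the rest of the 4 arms, 5 were met by neither. The X cluster with the highest score, 20463104 to 20464340 (1.24 kb, score 0.87), was in neither replicate. Across the series-wide clusters of a stretch, length and score had a Spearman correlation of 0.43 on 3R, 0.30 on 2L, 0.31 on 3L and -0.28 on X, while the rest of the X had 0.30. The negative value on X was found in the series-wide list only, since the X stretch had 0.67 in replicate 1 and 0.26 in replicate 2. Clusters of a stretch share the libraries, so these values are descriptions. In replicates 1 and 2 the median was 0.59 and 0.61 on 3R, 0.55 and 0.58 on 2L, 0.55 and 0.69 on 3L and 0.60 and 0.61 on X. The X values were below the 0.66 and 0.69 of the rest of the X. On 2L, 27.9% and 26.3% of the replicate clusters were at or above the median score of their list. The 3R stretch had 39.2% and 40.0%, the 3L stretch 32.0% and 60.0% and the X stretch 47.4% and 40.9%. The complete lists have 50.1% and 50.0% by construction, but the arms differed from this outside the stretches. The rest of X had 73.6% and 71.8%, the rest of 3R 44.1% and 41.4%, the rest of 2L 44.9% and 49.2%, the rest of 3L 45.9% and 48.3%. Against its own arm, the stretch was lower in both replicates for 2L and X. For 3R it was lower by less, and for 3L it was lower in replicate 1 only.

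**Figure D4:**
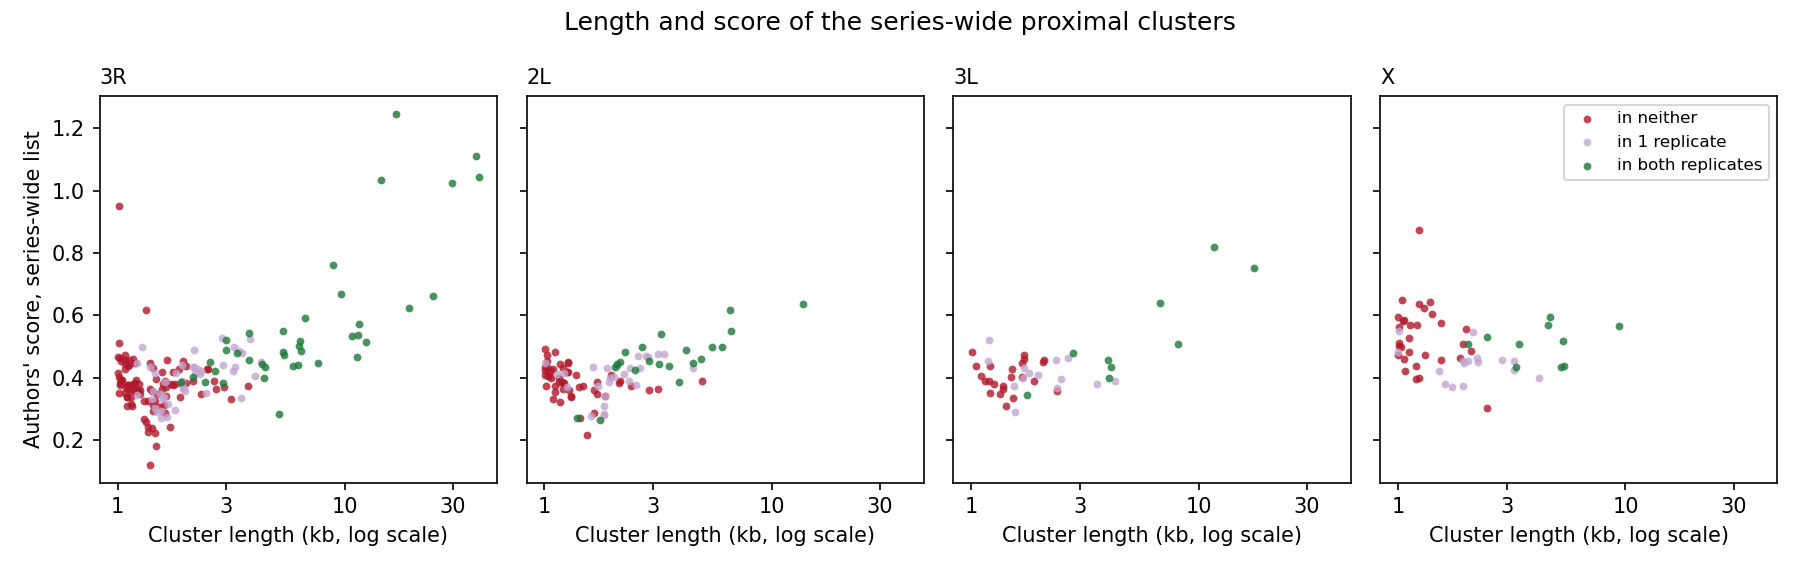
The authors' score (y axis) against cluster length (kb, log scale, x axis) for the series-wide proximal clusters of each arm, coloured by whether both, 1 or neither of the ChIP replicates had a cluster there. On 3R the 5 highest points are long and in both replicates, and on X the highest, at 0.87, is 1.24 kb long and in neither.

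Clusters at the inner limit of the stretches show what the rule left out. On 2L the first cluster inside was 21023788 to 21037586 (13.8 kb, score 0.64), the longest of that stretch. The cluster next to it, 21009254 to 21020264 (11.0 kb, score 0.64), crossed the limit, and the first outside, 20980536 to 21008726, was 28.2 kb long. The 2L limit therefore cuts through a group of long clusters. On 3R, 3L and X the clusters nearest the limit on both sides were 1.00 to 1.93 kb long and in neither replicate. One short cluster crossed the limit on 3R and one on 3L.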

How the data were processed

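Each list gave, per cluster, an arm, a first and last base in FlyBase release 5 coordinates, per the file headers, and a score. The submitters' processing notes name Bowtie 0.12.7. The caller, its thresholds and the role of the inputs are not given in the sources. The authors deposited the score without its scale, so it was used within a list only. The authors' deposited lists hold no read counts. Columns from outside the series numbered 0. Members, stretches and regions were chosen with earlier results of these data known. Regions named are, per stretch, the nearest, longest and highest-scoring clusters, those at the inner limit and the longest empty stretches; the 400 kb block and single bins were chosen after their values were seen. Covered share is bases in clusters over stretch length, arm lengths coming from the headers. Clusters were shared from 1 base. Counts were made with pandas 2.3.3, numpy 2.4.6 and scipy 1.17.1 under Python 3.11.15, tested on simulated lists, and checked with bedtools 2.31.1. Alternatives were a 1 Mb stretch, a score minimum, merging below 1000 bp, a length minimum, stricter overlap and each replicate alone. Genes and sequences were not used here, because the gene table follows another release.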

Additional observations from a re-analysis of the deposited data

Results flagged for a closer look

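The difference in covered share between the proximal 2 Mb and the rest of the arm had opposite signs on 3R and on each of 2L, 3L and X in both ChIP replicates. It was 2.52 percentage points in replicate 1 and 2.87 in replicate 2 on 3R, against values from -16.0 to -7.96 on the other 3 arms. The difference between the arms was not tested.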

How the results depend on the processing

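Of 114 alternative values, 53 stayed within the spread or limit used for that value, 60 moved beyond it and 1 changed sign. With n = 2 that spread is small. With a stretch of 1 Mb the covered share was 22.2% on 3R, 0.445% on 2L, 0% on 3L and 1.73% on X, the ratio of 3R to the mean of the other 3 arms was 30.9, and the difference from the rest of the arm was 8.61 points on 3R, -13.3 on 2L and -18.2 on 3L. When clusters below the median score were dropped, the shares were 11.8%, 1.85%, 1.95% and 1.06% on 3R, 2L, 3L and X, the ratio 7.34 and the differences 3.22, -7.43, -11.0 and -7.59. The series-wide list gave 30.2%, 11.3%, 6.36% and 6.06%, a ratio of 3.82 and differences of 2.40, -17.2, -28.6 and -18.8. Merging gave 4.57% on 2L, 2.14% on X, a ratio of 5.09 and differences of 2.42 on 3R and -16.3 on 3L. Without the densest 400 kb, an alternative chosen after seeing the data, the shares were 7.32%, 2.68%, 0% and 1.39%, the ratio 5.41, and the differences -6.43 (reversed) on 3R, -11.3 on 2L, -18.7 on 3L and -9.14 on X, all lower by construction. Leaving out either replicate gave 16.0% to 16.8% on 3R, 4.35% to 4.52% on 2L, 2.80% to 3.29% on 3L, 2.08% to 2.10% on X and a ratio of 5.12 to 5.18. The differences then ran from 2.52 to 2.87, -10.3 to -8.84, -16.0 to -15.3 and -8.90 to -7.96.

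Clusters of at least 1301 bp numbered 63 on 2L and 34 on X, and merged clusters 30 on 3L. Median length with that minimum was 2157 bp on 3R, 2159 bp on 2L and 2105 bp on X, and the X median score 0.46. After merging it was 1733 bp on 3R and 2525 bp on 3L. The share met by both replicates was 20.9%. It became 13.0% with 50% of the cluster covered, 30.2% with the length minimum, 36.9% at or above the median score, and 33.3% to 34.9% with 1 replicate required. The distance to the first supported cluster was 271 kb on 3R and 1687 kb on 3L at or above the median score. With 1 replicate required it was 275 to 864 kb on 2L, 6.93 to 158 kb on X, 0.395 kb on 3R and 1600.2 kb on 3L. Empty bins on 3R numbered 1 to 2, on 2L 10 to 12, on X 13 and on 3L 17 with a replicate left out. With reciprocal overlap of 50%, 46.0% of replicate 1 and 49.3% of replicate 2 clusters were shared. A stricter overlap rule can only lower a share. For the other changes the cause was not tested. Unknown depth limits every count. No paired analysis was possible because no input list was analysed here, and a pair needs a second group.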

Other observations

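The 2 Mb of 3R that follow the proximal stretch had the lowest coverage of any full 2 Mb window of that arm, at 6.99% in replicate 1 and 6.34% in replicate 2. The proximal stretch, at 16.8% and 16.0%, ranked 10 of 13 from the lowest in replicate 1 and 12 of 13 in replicate 2. On 2L, 3L and X the proximal window was the lowest of the arm in both replicates, and the next window on these arms was covered over 14.3% to 22.3%. The scaffolds 3RHet, 3LHet, XHet and 2LHet hold heterochromatic sequence assigned to these arms apart from the arm sequences. The series-wide list had 4 clusters on 3RHet, 4 on 3LHet, 1 on XHet and 0 on 2LHet. It covered 0.263% of 3RHet, 0.268% of 3LHet and 0.673% of the shorter XHet, and 1 cluster on 3RHet was met by both replicates.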
